A study of Mus musculus with 6 samples.

Results

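Brain endothelial and pericyte genes were followed in mice lacking Dap12 through 10 genes, Cldn5, Pecam1, Cdh5, Kdr, Flt1, Tek, Slco1c1, Abcb1a, Pdgfrb and Rgs5. All probe sets whose single gene symbol in the platform annotation was one of these were taken, which gave 19 of 45037 non-control probe sets and 10 of 18193 named genes. Total RNA came from the brains of mice aged 1 month, described in the design as midbrain with diencephalon and basal ganglia. There were 3 arrays labelled Dap12-ko, named 67, 68 and Ko1, and 3 labelled Dap12-het, named 75, 76 and 81. The heterozygous mice keep 1 working copy of the gene, and no wild-type arrays were analysed here. The design speaks of 3 mice of each genotype, while strain, sex, the allele and how animals match arrays are not given in the sources used here. A p-value here reflects only the spread among these arrays, which may be technical. Below, array values are always listed in the order 67, 68, Ko1 for knockout and 75, 76, 81 for heterozygous.

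Endothelial cells line brain capillaries and are sealed to each other by tight junctions, which with selective transporters form the blood-brain barrier. Pericytes wrap the capillaries, smooth muscle wraps the arterioles, and both are called mural cells. Endothelial cells take instructions from VEGF and angiopoietin receptors and recruit pericytes by releasing PDGF-B, which binds PDGFR-beta on the pericyte. Dap12, encoded by Tyrobp, is an adaptor of microglial receptors and is not an endothelial gene. In whole-tissue RNA, fewer cells of a type and less RNA per cell cannot be told apart.

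Each value is a signal intensity from a 1-colour Affymetrix array, and a probe set is a group of short probes for 1 transcript. Differences are given as knockout minus heterozygous on the scale of log2(signal + 16), which understates the change of dim probe sets. The targeted gene Tyrobp fell by 1.68 ± 0.33 (SE) on this scale, with an adjusted p of 0.0439 (limma), and its groups did not overlap. Omitting a single array ended the call for each of the 5 arrays besides Ko1 (adjusted p = 0.0881 to 0.22), as did a floor of 1 (0.104), testing without a filter (0.0952) and eBayes without trend (0.0505). Leaving out 67, 68, 75 or 81 left 0 calls among all tested probe sets, and leaving out 76 left 29. All 42 spiked control probe sets, which are not mouse transcripts, were higher on every knockout array, by a median of 1.78 on a plain log2 scale. The median log2 level of all probe sets was 5.34 to 5.82 on the knockout arrays and 5.18 to 5.25 on the heterozygous arrays. Centring the arrays on their medians moved the median of all tested probe sets by -0.40. The part of these array-wide differences in the results below was not tested. Signal at the 3-prime over the 5-prime end of a transcript is a measure of RNA integrity. For Gapdh it was 0.702 to 1.21 on knockout and 0.997 to 1.42 on heterozygous arrays. For beta-actin it was 1.76 to 2.33 on knockout and 1.59 to 2.12 on heterozygous arrays.

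Of the 10 genes, 1 had a probe set that changed: Rgs5, on 1 of its 4 probe sets. Of the 19 probe sets, 16 were bright enough to be tested, and these covered all 10 genes. Of the 16, 1 was called higher, 0 were called lower and 15 were not called (limma, adjusted p under 0.05; 4 had an unadjusted p under 0.05, against 20.9% of all tested). Over all 22518 probe sets tested, 1.98% were called, 1.24% higher and 0.733% lower. The differences of the 16 had a median of -0.0036 against 0.0017 over all tested probe sets, with 8 above and 8 below 0 (50.1% of all tested probe sets were above 0). The groups did not overlap for 4 of the 16, against 27.4% of all tested probe sets, a share near the background. Of all 19, 7 did not overlap, 5 of them higher, against 24.3% and 16.9% of all non-control probe sets. Among the 11 tested probe sets of the 8 endothelial genes 0 were called and 0 had groups that did not overlap, and their unadjusted p lay above 0.05 without exception. The 4 that did not overlap belonged to the 2 mural genes.

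**Figure D1:**
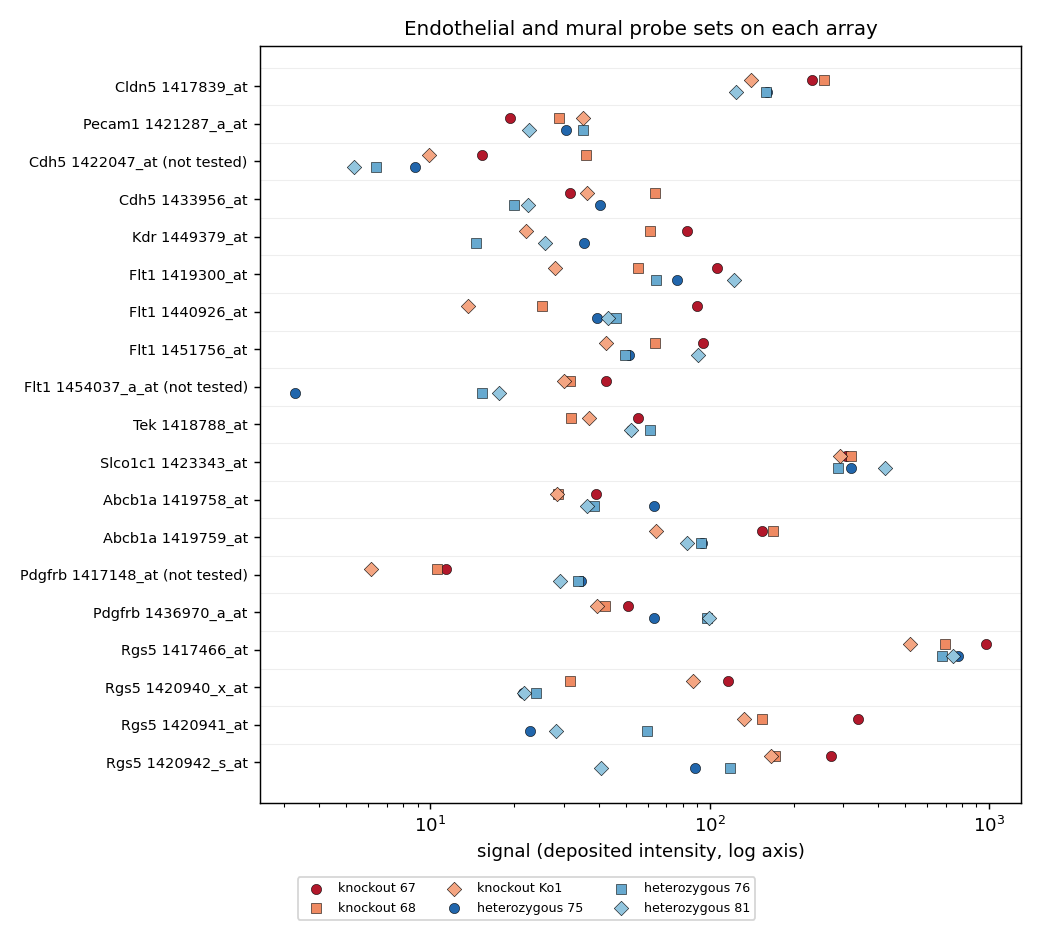
Signal of the 19 probe sets of the 10 genes on the 6 arrays, on a log axis; each point is 1 array, red for knockout and blue for heterozygous, and probe sets below the filter on level are marked as not tested. The red and blue points are separated for both Pdgfrb probe sets, for 3 of the 4 Rgs5 probe sets and for the dim probe sets of Cdh5 and Flt1, and mix for the other 12.

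Junction and adhesion genes did not pass the test. Cldn5, the main claudin of the blood-brain barrier tight junction, gave 233, 256 and 140 in knockouts against 160, 159 and 124 in heterozygotes. Knockout 67 and 68 stood above all heterozygous arrays, while Ko1 lay among them. The group means were 210 ± 61.3 and 148 ± 20.5 (SD, n = 3), and the difference was 0.43 ± 0.25 (SE; 95% interval -0.15 to 1.01, adjusted p = 0.373). Leaving out knockout Ko1 gave 0.68 (adjusted p = 0.0346), and with arrays centred on their medians the difference was 0.03.

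Cdh5, which encodes VE-cadherin of the adherens junction, had 2 probe sets. The brighter, 1433956_at, read 31.7, 63.5 and 36.5 in knockouts against 40.6, 20 and 22.4 in heterozygotes, and the groups overlapped. Its difference was 0.45 ± 0.32 (SE; 95% interval -0.27 to 1.17, adjusted p = 0.453). The dimmer, 1422047_at, was below the filter, with signals of 15.4, 36.2 and 9.86 against 8.8, 6.38 and 5.33. The knockouts all stood above the heterozygotes there (exact permutation p = 0.1, two-sided, the smallest that 3 against 3 arrays can give). In the fit without a filter this difference was 0.61 ± 0.32 (SE, adjusted p = 0.358).

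Pecam1, the adhesion molecule CD31, read 19.3, 28.9 and 35.2 in knockouts against 30.7, 35.2 and 22.5 in heterozygotes. The groups overlapped over most of their range. The difference was -0.06 ± 0.28 (SE; 95% interval -0.71 to 0.59, adjusted p = 0.927).

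The receptors for VEGF and angiopoietin were spread widely on the knockout arrays. Kdr encodes VEGFR-2, the main signalling receptor for VEGF-A. It read 83, 61 and 22 in knockouts against 35.6, 14.6 and 25.6 in heterozygotes. As for Cldn5, 67 and 68 were above every heterozygous array and Ko1 was not. The difference was 0.71 ± 0.40 (SE; 95% interval -0.19 to 1.61, adjusted p = 0.341), and without knockout Ko1 it was 1.11 (adjusted p = 0.0336).

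Flt1 encodes VEGFR-1, which binds VEGF-A tightly and, in a secreted form, acts as a trap for it. Probe set 1419300_at gave 106, 55.4 and 28 in knockouts against 76.6, 64.4 and 122 in heterozygotes (-0.47 ± 0.39, SE, adjusted p = 0.518). The second, 1440926_at, gave 89.7, 25.2 and 13.6 against 39.4, 46 and 43.3 (-0.22 ± 0.44, SE, adjusted p = 0.812). In both, knockout 68 and Ko1 lay below all 3 heterozygous arrays, while knockout 67 lay among them in the first and above them in the second. The third, 1451756_at, gave 94.4, 63.5 and 42.6 against 51.5, 50 and 91.1 (0.04 ± 0.31, SE, adjusted p = 0.961), with the other sign when arrays were centred (-0.36).

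The fourth Flt1 probe set, 1454037_a_at, was below the filter and had groups that did not overlap, unlike the other 3. It read 42.6, 31.6 and 30.2 in knockouts against 3.28, 15.3 and 17.5 in heterozygotes, with no overlap. Without a filter its difference was 0.89 ± 0.34 (SE, adjusted p = 0.247). Within each array, 1454037_a_at minus 1419300_at on the log2 scale was -1.06, -0.59 and 0.07 on the knockout arrays. On the heterozygous arrays it was -2.26, -1.36 and -2.04 (exact permutation p = 0.1, two-sided, the smallest possible). For 1451756_at minus 1419300_at the groups differed by 0.51 (permutation p = 0.1), and for 1440926_at by 0.25 (p = 0.5). The part of array-wide differences that depend on signal level was not tested here either.

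ETS factors are a transcription factor family that endothelial genes commonly use. The start-site regions of both VEGF receptor genes are shown because each holds GGAAGT, a form of the ETS motif. Sequences are from RefSeq (build GRCm38.p6), read 5′ to 3′ on the strand of the gene, from 250 bases before to 50 bases after the start, with this form in capitals. GGAAGT, searched on both strands (so also as ACTTCC), stood in the promoters of Kdr, Flt1 and Slco1c1 among the 7 member genes with an entry, and in 23.8% of all 32851 promoters. A match is a description of letters only. Stretches that hold GGAA or TTCC without the full form are not in capitals.
Kdr, chr5:75978406-75978705, minus strand: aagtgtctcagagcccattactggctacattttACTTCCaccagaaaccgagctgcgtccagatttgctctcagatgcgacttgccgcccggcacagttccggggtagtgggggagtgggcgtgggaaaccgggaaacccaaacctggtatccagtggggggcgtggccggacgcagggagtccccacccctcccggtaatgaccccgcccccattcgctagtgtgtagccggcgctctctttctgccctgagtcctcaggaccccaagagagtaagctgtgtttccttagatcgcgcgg
Flt1, chr5:147725962-147726261, minus strand: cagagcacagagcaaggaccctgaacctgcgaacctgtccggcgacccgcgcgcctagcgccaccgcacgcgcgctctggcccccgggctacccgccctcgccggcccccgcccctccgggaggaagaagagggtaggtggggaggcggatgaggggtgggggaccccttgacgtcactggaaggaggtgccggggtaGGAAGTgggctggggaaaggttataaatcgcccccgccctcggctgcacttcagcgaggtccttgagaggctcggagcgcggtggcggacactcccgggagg

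The motif begins 217 bases before the annotated start in Kdr, as ACTTCC, and 52 bases before it in Flt1. A GC box, GGGCGG on either strand, was found for Cldn5, Flt1 and Kdr, against 35.7% of all promoters. Neither receptor gene passed the test.

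Tek encodes Tie2, the angiopoietin receptor that keeps vessels quiescent. It read 55.3, 31.9 and 37.1 in knockouts against 52.3, 61.3 and 52.3 in heterozygotes. Knockout 68 and Ko1 were below all heterozygous arrays and 67 was among them. The difference was -0.33 ± 0.25 (SE; 95% interval -0.90 to 0.24, adjusted p = 0.484).

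The 2 transport genes did not pass either. Slco1c1, the thyroid hormone and organic anion transporter of brain capillaries, read 307, 321 and 293 in knockouts against 320, 287 and 424 in heterozygotes. The knockout arrays differed from each other by less than the heterozygous arrays did, and the groups overlapped. Its difference was -0.14 ± 0.20 (SE; 95% interval -0.59 to 0.32, adjusted p = 0.736).

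Abcb1a encodes P-glycoprotein, the efflux pump that keeps drugs out of the brain, and its probe sets leaned in opposite directions. The brighter, 1419759_at, read 154, 168 and 64.3 in knockouts against 93.9, 93.3 and 83 in heterozygotes. Knockout 67 and 68 were above and Ko1 below every heterozygous array. The difference was 0.36 ± 0.32 (SE, adjusted p = 0.557), 0.74 (adjusted p = 0.0251) without Ko1, and -0.04 with arrays centred on their medians. The dimmer, 1419758_at, read 39.2, 28.7 and 28.4 against 63.3, 38.6 and 36.2 (-0.35 ± 0.27, SE, adjusted p = 0.501), and the groups overlapped.

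**Figure D2:**
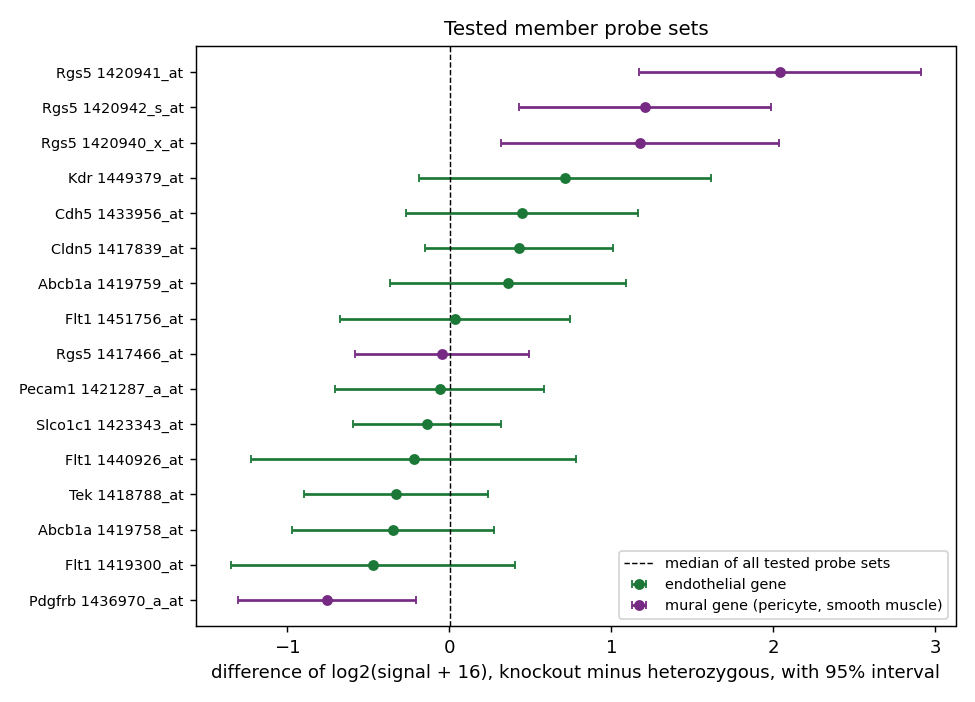
Difference of log2(signal + 16), knockout minus heterozygous, for the 16 tested probe sets, with 95% intervals from limma; green marks endothelial and purple mural genes, and the dashed line is the median of all 22518 tested probe sets. The intervals of all 11 endothelial probe sets include 0, and those of 3 Rgs5 probe sets and of Pdgfrb do not, although only Rgs5 1420941_at passed after adjustment over all probe sets.

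The 3 knockout arrays differed among themselves in these endothelial genes. Of the 11 tested endothelial probe sets, 8 were above the heterozygous mean on knockout 67, 5 on 68 and 2 on Ko1. The same counts over all tested probe sets were not made. The median log2 level of all probe sets fell in the same order (5.82, 5.69 and 5.34). On Ko1 it still lay above the heterozygous arrays (5.18 to 5.25). Over 11467 genes, each at its probe set of highest mean, medians relative to the heterozygous mean did not fall in that order (-0.09, -0.08 and -0.04). The part of array-wide level in these counts was not tested. Without Ko1, 5 of the 16 member probe sets were called, all higher, namely Cldn5, Kdr, the brighter Abcb1a and 2 of Rgs5. In that fit 23.2% of all probe sets were called, 11.9% higher. Without 67 and 68, the differences of Cldn5 (-0.06) and Kdr (-0.09) took the other sign, and 1 member, Rgs5 1420940_x_at, was called against 2.73% of all tested. That fit has 1 knockout array, which is assumed to vary like the heterozygous arrays.

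Choroid plexus markers also differed among the knockout arrays. The summed signal of 7 choroid plexus markers, carried mostly by Ttr, was 16334 and 17986 on knockout 67 and 68, 632 on Ko1, and 766 to 3746 on the heterozygous arrays. The median of the 4 genes tested was 1.03, 1.46 and 0.36 above the heterozygous mean on knockout 67, 68 and Ko1. Of the 7, 2 were higher on every knockout array, against 16.9% of all non-control and 14.9% of all tested probe sets. These were Kl and Folr1 (differences 0.98 ± 0.33 and 0.92 ± 0.34, SE, limma adjusted p = 0.143 and 0.169). Plvap, which marks fenestrated vessels such as those of the choroid plexus, read 70.8, 139 and 48.7 against 99.2, 50.7 and 94.1 (0.02 ± 0.36, SE, adjusted p = 0.968), and was picked after its values were seen. The summed signal of 4 red cell markers was 84.2 to 193 on knockout and 41.5 to 63.5 on heterozygous arrays, with 1 marker bright enough to be tested, Alas2 (0.78 ± 0.25, SE, adjusted p = 0.129). For 10 meningeal and perivascular fibroblast markers the sums were 828 to 1129 and 663 to 1240, which overlap. None of these lists has a marker at 0, and their part in the endothelial values was not tested.

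Among mural genes, Pdgfrb was lower on every knockout array with both of its probe sets, without passing the test. It encodes PDGFR-beta, the receptor through which pericytes are recruited and kept. Probe set 1436970_a_at read 51, 42.4 and 39.4 in knockouts against 63.3, 98 and 99.2 in heterozygotes. The second, 1417148_at, was below the filter and read 11.4, 10.5 and 6.11 against 34.7, 33.8 and 29.1. The groups were separate in both, and knockout Ko1, unlike in Cldn5 or Kdr, ran with 67 and 68.

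Group means of the first Pdgfrb probe set were 44.3 ± 6.05 and 86.8 ± 20.4 (SD, n = 3), a difference of -0.75 ± 0.24 (SE; 95% interval -1.31 to -0.20, unadjusted p = 0.0129, adjusted p = 0.132 by limma). The second differed by -0.94 ± 0.30 in the fit without a filter (SE, adjusted p = 0.189). Groups that did not overlap, with the knockouts lower, were found for 12.5% of all tested probe sets and 7.42% of all non-control probe sets. With arrays centred on their medians the first difference was -1.16 (adjusted p = 0.0472), the 1 alternative under which it was called, and in that fit 2.58% of all tested probe sets were called, 2.14% lower. Its range when 1 array at a time was left out was -0.93 to -0.66.

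Rgs5 encodes a regulator of G-protein signalling that is a classical pericyte marker, and its probe sets disagreed with each other. Probe set 1417466_at, the one with the highest signal of the 4, read 974, 697 and 519 in knockouts against 771, 680 and 741 in heterozygotes. Its group means were 730 ± 229 and 730 ± 46.5 (SD, n = 3), and the difference was -0.04 ± 0.24 (SE; 95% interval -0.58 to 0.49, adjusted p = 0.936). The knockout arrays spread around the heterozygous ones on both sides.

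The other 3 probe sets of Rgs5 were higher on every knockout array. Probe set 1420941_at read 338, 154 and 133 in knockouts against 22.7, 59.7 and 28.1 in heterozygotes. It rose by 2.04 ± 0.38 on the log2 scale (SE; 95% interval 1.17 to 2.91, limma adjusted p = 0.0399, exact permutation p = 0.1), from 36.8 ± 20 to 209 ± 113 (SD, n = 3). Probe set 1420942_s_at read 272, 171 and 166 against 88.6, 118 and 40.7 (1.21 ± 0.34, SE, adjusted p = 0.101). Probe set 1420940_x_at read 116, 31.6 and 86.8 against 21.4, 23.8 and 21.7 (1.18 ± 0.38, SE, adjusted p = 0.132).

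All 3 were designed on the same expressed sequence tag in the platform annotation, so they share a source and are not 3 separate observations. Names ending in _s_at and _x_at mark probe sets with probes that can match more than 1 transcript, so signal from related sequences is possible there. Within each array, 1420941_at minus 1417466_at on the log2 scale was -1.48, -2.06 and -1.85 on the knockout arrays and -4.34, -3.20 and -4.10 on the heterozygous arrays (exact permutation p = 0.1, two-sided, the smallest possible). The groups differed by 2.08 in this within-array difference. The part of array-wide differences that depend on signal level was not tested. Where the probe sets lie along the transcript was not examined.

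The call for Rgs5 1420941_at was lost without knockout 67 (1.66, adjusted p = 0.102), knockout 68 (2.18, 0.139), heterozygous 75 (1.85, 0.197), heterozygous 76 (2.33, 0.0909) or heterozygous 81 (1.94, 0.165), each adjusted by limma. It was also lost with quantile normalization (1.94, adjusted p = 0.0674), without a filter (adjusted p = 0.0699) and with eBayes run without trend (adjusted p = 0.0553). The call held without Ko1 (2.28, limma adjusted p = 0.00597) and without Ko1 and heterozygous 81 (2.18, 0.0118). It also held with array weights, arrays centred, a floor of 1, 64 added and eBayes run robustly. Without 67 and 68 together, which leaves 1 knockout array, the difference was 1.56. Leaving out 67, 68, 75 or 81 left 0 calls among all tested probe sets, and leaving out 76 left 29.

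The start-site region of Rgs5, the only member called, is shown with its match to the GATA motif, GATAAG on either strand, in capitals. This motif stood in the promoters of Rgs5 and Tek among the 7 member genes and in 7.44% of all promoters. In Rgs5 it begins 239 bases before the annotated start, as CTTATC.
Rgs5, chr1:169655251-169655550, plus strand: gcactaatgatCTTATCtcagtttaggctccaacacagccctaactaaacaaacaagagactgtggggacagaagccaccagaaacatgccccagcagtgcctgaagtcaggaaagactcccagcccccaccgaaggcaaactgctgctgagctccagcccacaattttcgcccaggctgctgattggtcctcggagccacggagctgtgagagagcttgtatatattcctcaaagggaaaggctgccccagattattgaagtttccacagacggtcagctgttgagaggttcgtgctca

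**Figure D3:**
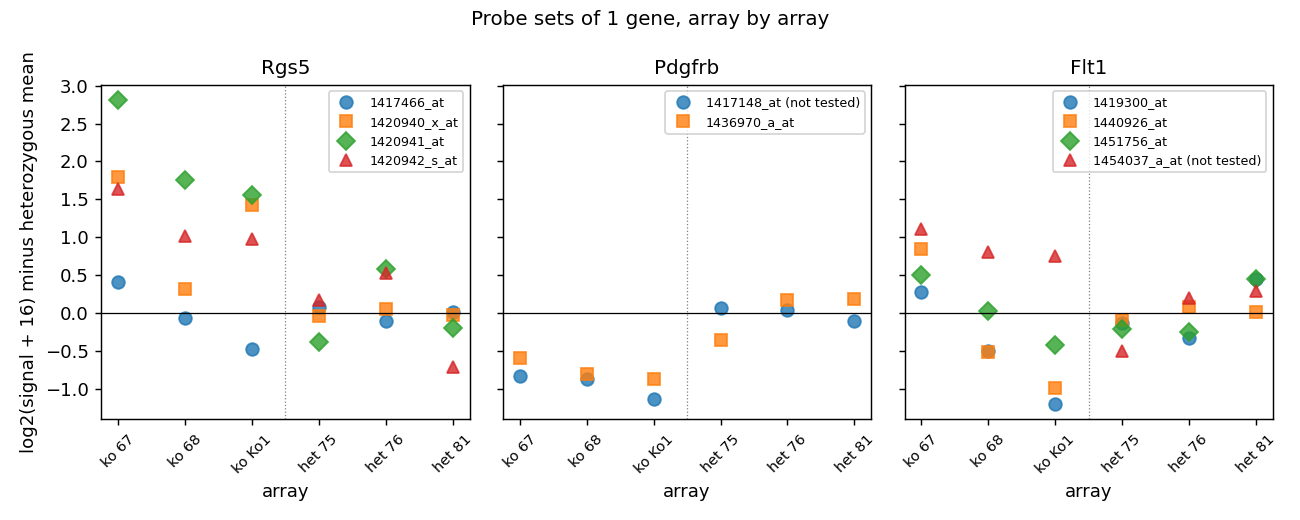
Level of each probe set of Rgs5, Pdgfrb and Flt1 on each array, as log2(signal + 16) minus the mean of the 3 heterozygous arrays; each symbol is 1 probe set and the dotted line separates knockout from heterozygous arrays. The Rgs5 probe set 1417466_at spreads around 0 on the knockout arrays while the other 3 lie above it, both Pdgfrb probe sets lie below 0 on all 3 knockout arrays, and 1 of 4 Flt1 probe sets lies above 0 on all 3.

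Over 5 lists of endothelial, junction, transport, mural and signalling genes, 126 probe sets were tested, of which 1 rose, 0 fell and 125 did not pass (limma), where 1.98% of all tested probe sets were called. The list with the call was barrier transport, with 1 higher and 0 lower of 19 probe sets. The other endothelial genes had 0 calls in 31 probe sets, the tight junction genes 0 in 11, the other mural genes 0 in 17 and the ligands and signalling genes 0 in 48. At an unadjusted p under 0.05 there were 1, 1, 1 and 13 in these 4 lists, and 21 in all 126, against 20.9% of all tested probe sets.

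Taking for each gene its probe set of highest mean, the 8 endothelial members had a median difference of 0.15 with 4 above 0. Over 11467 genes the median was -0.09, with 4747 above 0. Of the 8 members 0 were called, against 1.36% of the 11467 genes. The 21 other endothelial genes tested had a median of -0.18 with 8 above 0. The 13 other mural genes were at 0.10 and the 14 barrier transport genes at -0.06. The 7 tight junction genes were at 0.16 and the 27 ligands and signalling genes at -0.18. On knockout 67, 68 and Ko1 the endothelial members had medians of 0.22, 0.37 and -0.14 relative to the heterozygous mean. The other mural genes had 0.62, 0.24 and -0.31, and all 11467 genes -0.09, -0.08 and -0.04. Without knockout Ko1 and heterozygous 81 together, the other endothelial genes stood 0.14 above the median of all genes, against -0.10 with all arrays.

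The call in barrier transport was Tfrc, the transferrin receptor that carries iron into the brain and is also made by other cells. Its probe set 1422966_a_at rose by 1.78 ± 0.30 (SE, adjusted p = 0.0326), with 127, 94.1 and 73.9 in knockouts against 12.2, 28.2 and 11.9 in heterozygotes. Omitting a single array ended the call for each of the 5 arrays besides Ko1 (adjusted p = 0.0843 to 0.188), as did quantile normalization (adjusted p = 0.0582) and testing without a filter (adjusted p = 0.068). As said for Rgs5, few or no probe sets at all were called in these fits with 1 array omitted. As for Rgs5, the probe set of the gene with the highest signal did not follow, with 407 ± 22.2 against 410 ± 13.4 (SD, n = 3; -0.01 ± 0.17, SE, adjusted p = 0.979).

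Glucose transporter Slc2a1 (GLUT1) had 3 tested probe sets. The first, 1426599_a_at, read 220, 232 and 354 in knockouts against 479, 463 and 437 in heterozygotes, with no overlap (-0.77 ± 0.22, SE, adjusted p = 0.102). The others differed by -0.25 ± 0.20 and -0.01 ± 0.33, with groups that overlapped. The cationic amino acid transporter Slc7a1 was lower on every knockout array with both tested probe sets (-0.90 ± 0.20 and -0.65 ± 0.19, SE, adjusted p = 0.0597 and 0.106). So was Slc7a5, the large neutral amino acid transporter (-0.93 ± 0.22, SE, adjusted p = 0.0711). The examples Slc7a1 and Slc7a5 were picked after their values were seen. Mfsd2a, the lipid transporter of the barrier, was at 196 ± 24.9 against 190 ± 23.8 (SD, n = 3; 0.05 ± 0.20, SE, adjusted p = 0.917). Slco1a4, an organic anion transporter, was at 203 ± 13.5 against 239 ± 28.3 (-0.21 ± 0.19, SE, adjusted p = 0.554). Both probe sets of Abcb1b, the second mouse P-glycoprotein gene, were below the filter.

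In the junctions, Tjp1 (ZO-1) was at 434 ± 47.9 against 428 ± 34.9 (SD, n = 3; 0.02 ± 0.18, SE, adjusted p = 0.969). Occludin, Ocln, had probe sets at 0.52 ± 0.29 and -0.29 ± 0.32. Jam2, a junctional adhesion molecule, reached 1.49 ± 0.33 on 1 probe set (SE, adjusted p = 0.057), with 71.4, 134 and 81.2 against 17.8, 39.6 and 14.6, and 0.16 ± 0.20 on the one with the highest signal. Cgn, cingulin, was at -0.74 ± 0.36 (adjusted p = 0.282). Among other endothelial genes, the smallest p belonged to Ctla2a (0.69 ± 0.23, adjusted p = 0.144) and Ramp2, an adrenomedullin receptor partner (-0.49 ± 0.22, adjusted p = 0.25). Emcn, endomucin, was at 45.8 in heterozygotes and 46.6 in knockouts (0.02 ± 0.24, adjusted p = 0.974), and Tie1 and Vwf were below the filter.

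Of the other mural genes, 7 of 13 were above 0, beside 4747 of all 11467 genes. Of the 20 on the array, tested or not, 1 was higher and 4 were lower on every knockout array. These counts use the probe set of highest mean. The shares over all non-control probe sets were 16.9% higher and 7.42% lower. Cspg4, the pericyte and precursor proteoglycan NG2, had probe sets at -0.78 ± 0.34 and 0.39 ± 0.34 (SE, adjusted p = 0.243 and 0.543). Vtn, vitronectin of pericytes, was at 353 ± 115 against 360 ± 56.6 on its first probe set (SD, n = 3; -0.07 ± 0.28, SE, adjusted p = 0.91). Notch3, the receptor of smooth muscle and pericytes, was lower on every knockout array on 1 probe set (-0.62 ± 0.29, SE, adjusted p = 0.26). That probe set read 87.3, 87.2 and 40.4 against 123, 126 and 94. The groups overlapped on the other Notch3 probe set (-0.19 ± 0.50, SE, limma adjusted p = 0.862). Acta2, smooth muscle actin, was at 0.40 ± 0.23 (adjusted p = 0.373), and Ndufa4l2 at 1.15 ± 0.47 (adjusted p = 0.216).

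Ligands were read on the same arrays as their receptors. Vegfa, the ligand of Kdr and Flt1, was at 138 ± 24.6 against 152 ± 8.93 on its first probe set (SD, n = 3; -0.14 ± 0.20, SE, adjusted p = 0.727). Its second was higher on every knockout array, with 74.9, 89.8 and 29.6 against 27.9, 22.3 and 15.1 (1.02 ± 0.36, SE, adjusted p = 0.156). Pdgfb, the ligand of Pdgfrb, had probe sets at -0.73 ± 0.35 and 0.52 ± 0.42 (SE, adjusted p = 0.274 and 0.514), which take opposite signs. Angpt1, the pericyte ligand of Tek, was at 0.49 ± 0.31 (adjusted p = 0.407), and both probe sets of Angpt2 were below the filter. The VEGF co-receptor Nrp1 had 4 probe sets between -1.01 ± 0.44 and 0.09 ± 0.22, with adjusted p from 0.234 to 0.978. Lrp6, a Wnt co-receptor, was lower on every knockout array on 1 probe set (-0.87 ± 0.19, adjusted p = 0.0584) and overlapped on the other (-0.06 ± 0.44, adjusted p = 0.957). Ctnnb1, beta-catenin, reached 1.49 ± 0.37 on 1 probe set (adjusted p = 0.075).

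Microglia markers, from the cells that use Dap12, had summed signals of 2539 to 2871 on knockout and 1769 to 2157 on heterozygous arrays over 9 genes, which do not overlap. Of the 9 genes, 3 were higher and 1 was lower on every knockout array, against 14.9% and 12.5% of all tested probe sets. In this list 0 of 13 tested probe sets were called (limma), with 4 at an unadjusted p under 0.05, against 20.9% of all tested. C1qb and C1qa had the smallest p of that list (1.01 ± 0.23 and 0.91 ± 0.22, SE, adjusted p = 0.061 and 0.0748). Astrocyte markers, from the cells whose endfeet cover the capillaries, summed to 14052 to 14981 and 10934 to 13480, which also do not overlap. Of their 25 probe sets 0 were called (limma), with 9 at an unadjusted p under 0.05, against 20.9% of all tested. The median of the 8 astrocyte genes was -0.11, with 3 above 0, beside -0.09 and 4747 of all 11467 genes. Their smallest p belonged to probe sets of Slc1a2 and Aqp4 (0.85 ± 0.21 and 1.30 ± 0.32, SE, adjusted p = 0.0722 and 0.074). Fibroblast markers had 0 calls in 16 probe sets (limma), with 3 at an unadjusted p under 0.05, against 20.9% of all tested. Among them, 1 probe set of Pdgfra was at 1.29 ± 0.27 (adjusted p = 0.0553) and 1 of Col1a1 at 0.90 ± 0.29 (adjusted p = 0.137). The other tested probe set of each was at -0.12 ± 0.19 and -0.13 ± 0.47 (adjusted p = 0.758 and 0.902). The part of these cell types in the vascular values was not tested.

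**Figure D4:**
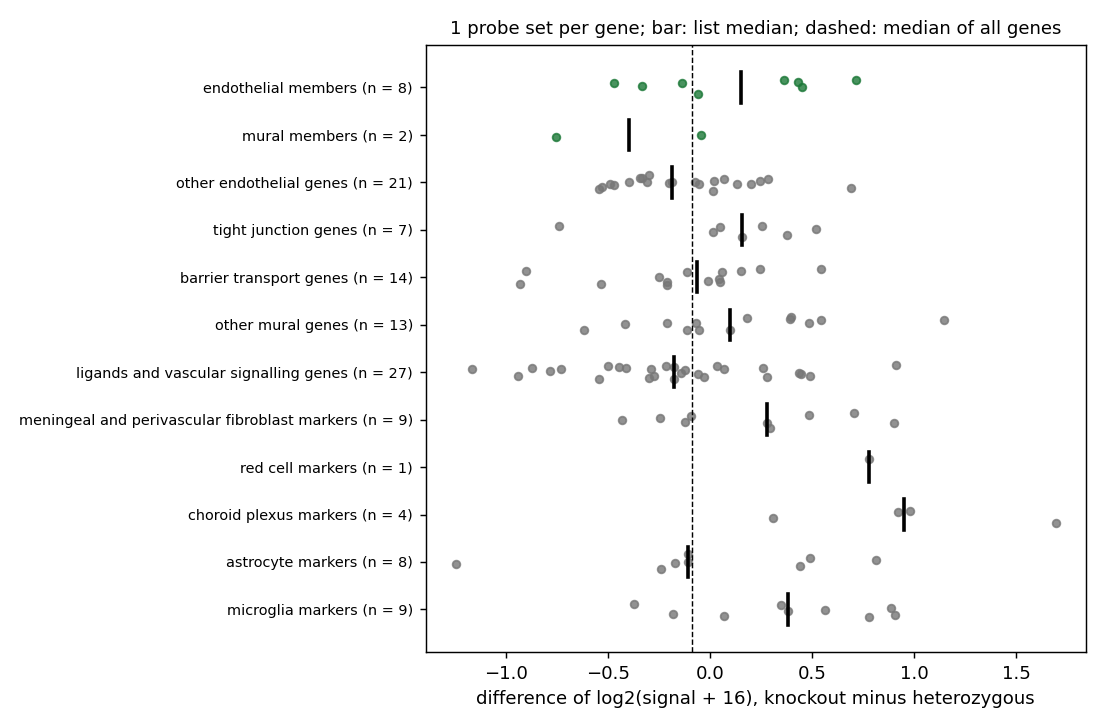
Difference of log2(signal + 16), knockout minus heterozygous, for the probe set of highest mean of each gene in each list; each point is 1 gene, black bars are list medians and the dashed line is the median of 11467 genes, at -0.09. Endothelial and mural members (green) lie on both sides of the dashed line, as do the other vascular lists, and the 4 choroid plexus genes, with a median of 0.95, lie to the right of the dashed line.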

How the data were processed

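The authors deposited 1 linear signal intensity per probe set and array, per the file headers and values; per the submitters' processing notes they used GCOS, the Affymetrix scanner software. Its version and summary algorithm are not stated in the sources used here. The mean intensity with 2% trimmed at each end was 100 on every array, and this scaling was kept. Of 45101 probe sets, 64 were controls, 34945 had 1 gene symbol, 932 several and 9160 none.

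Signals were transformed as log2(signal + 16). Probe sets with a mean log2 value above the median were tested, 22518 in all, with limma 3.58.1 in R 4.3.3 (lmFit, eBayes with trend, two-sided) and Benjamini-Hochberg adjustment over all of them, at a threshold of 0.05. Intervals are 95% and use 8.64 degrees of freedom. Exact permutation tests used the 20 assignments of 3 against 3 arrays. The procedure was run on simulated data to check its mean estimates. The simulation held no array-wide differences, so it does not test their effect. The number of arrays limits the precision.

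The members, lists and tests were chosen with earlier results of these data known. Besides the members, the genes named were a fixed set of vascular genes, and the genes of each list that passed or, where none passed, the 2 with the smallest p, with exceptions said where they occur. Of the 12 lists, those genes without a probe set were left out. Promoters came from RefSeq.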

Additional observations from a re-analysis of the deposited data

How the results depend on the processing

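No paired analysis was possible because the array numbers of the groups are not shared. The count of member probe sets called was 1, and was 0 with quantile normalization, without a filter, with the filter at the 75th percentile (which leaves out Rgs5 1420941_at) and without a trend. It was 2 with arrays centred and with array weights, and 3 without knockout Ko1 and heterozygous 81. Among all tested probe sets 445 were called, against 129 with quantile normalization, 124 without a filter, 180 without a trend, 4786 with array weights and 4478 without Ko1 and heterozygous 81. Leaving out 1 array gave 0 to 5 members and 0 to 5220 in all (limma). Filtering on the mean of linear signals, chosen after seeing the data, gave 1 and 466.

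Differences took the other sign without knockout 67 and 68 together, which leaves 1 knockout array, for Cldn5 (-0.062), Pecam1 (0.18), Kdr (-0.087), Flt1 1451756_at (-0.42) and Abcb1a 1419759_at (-0.40). Without Ko1 and heterozygous 81 they did so for Flt1 1419300_at (0.12), Flt1 1440926_at (0.17), Slco1c1 (0.0495) and Rgs5 1417466_at (0.18). Quantile normalization turned Flt1 1451756_at (-0.071) and Rgs5 1417466_at (0.048), centring turned Flt1 1451756_at (-0.36) and Abcb1a 1419759_at (-0.0415), and array weights turned Rgs5 1417466_at (0.0082). Leaving out 1 array gave -0.18 to 0.087 for Pecam1, -0.75 to 0.17 for Flt1 1440926_at, -0.19 to 0.26 for Flt1 1451756_at, -0.25 to 0.018 for Slco1c1 and -0.27 to 0.17 for Rgs5 1417466_at. None of these was called with all arrays. Of 277 values of single probe sets under alternatives, 237 kept direction and call. This count is partly fixed in advance. Changing the filter, the trend or the robust setting leaves a difference as it is. Where 0 probe sets were called in all, members not called before could not change.

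List medians are given relative to all genes. Without 67 and 68 they were -0.10 for endothelial members, 0.085 for tight junction, -0.083 for barrier transport, -0.27 for other mural, -0.18 for ligands and signalling, 0.40 for choroid plexus and 0.26 for astrocytes. Without Ko1 and heterozygous 81 they were 0.14 for other endothelial genes and -0.28 for astrocytes. Without a filter they were -0.25 for other endothelial, 0.10 for tight junction, -0.12 for barrier transport, -0.24 for ligands and 0.32 for microglia, and at the 75th percentile 0.51 for endothelial members and 0.53 for microglia. Array weights gave 0.057 for other endothelial, 0.37 for tight junction, -0.11 for fibroblasts and 0.59 for microglia. The mean of all tested probe sets gave -0.016 for endothelial members, 0.13 for tight junction, 0.27 for astrocytes and 0.39 for microglia. Quantile normalization gave 0.54 for microglia, 64 added gave 0.39 for microglia and 0.53 for choroid plexus, and a floor of 1 gave 1.59 for choroid plexus. Leaving out 1 array gave 0.11 to 0.30 for endothelial members, -0.18 to 0.14 for other endothelial, 0.18 to 0.29 for tight junction, -0.014 to 0.13 for barrier transport, -0.042 to 0.33 for other mural and -0.20 to -0.10 for ligands. It gave 0.15 to 0.49 for fibroblasts, 0.78 to 1.33 for choroid plexus, -0.19 to 0.22 for astrocytes and 0.41 to 0.58 for microglia. The cause was not tested.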
